A study of Mus musculus with 2 samples.

Results

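Myofibroblast-like fibroblasts were examined in single-cell RNA sequencing of 1 Dll1+ and 1 Dll1- mouse mammary tumor. They numbered 180 cells, 137 from the Dll1+ and 43 from the Dll1- tumor, of 1086 fibroblasts and 21702 cells past the quality limits. The cells were selected on their own RNA. A fibroblast needed at least 2 unique molecular identifiers (UMIs, tags that each count 1 captured RNA molecule) of 3 or more of Col3a1, Dcn, Lum, Dpt and Pdgfra. It also needed fewer than 3 UMIs of Rgs5, 0 of Cdh5 and fewer than 2 of Krt5. A fibroblast was then chosen as myofibroblast-like when it had UMIs for more genes of the list M (Tagln, Acta2, Thbs4, Cpxm2, Ltbp2) than of each of 3 other lists of 5 genes. Those lists were P (Smpd3, Thbd, Procr, Pcolce2, Scara5), X (Cxcl13, Barx2, Crocc2, Col28a1, Cyp7b1) and L (Il1rl1, Ret, Tnfrsf11b, F2rl1, Adgrg2). The levels of these genes in the chosen cells are therefore a description.

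The labels call both tumors untreated controls, and Dll1 encodes a membrane ligand of Notch receptors. The sources used here do not say by what allele, sort or test a tumor was Dll1+ or Dll1-, nor the strain or age of its host. Per the labels' protocols, tissue was digested with collagenase and hyaluronidase and labelled with antibodies against CD45, CD31 and Ter119, and live cells negative for the leukocyte protein CD45 were sorted and loaded on 10x v3 droplets. Each group is 1 tumor and 1 library, so no difference has a replicate check, and the 95% intervals given cover only the error of counting.

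Myofibroblasts are fibroblasts that build bundles of actin and myosin, pull on their surroundings and lay down collagen-rich matrix. They appear in healing wounds, fibrosis and the stroma of tumors, where TGF-beta and mechanical tension are known to induce them. Smooth muscle actin, the product of Acta2, is their usual marker, but it is shared with the mural cells of vessels and with myoepithelial cells of the mammary gland.

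The Dll1+ library held 117230907 UMIs over 13819 barcodes and the Dll1- library 135960457 over 13097. The chosen cells had medians of 10566 UMIs and 3191 genes in the Dll1+ library, and of 9456 UMIs and 3135 genes in the Dll1- library. The other fibroblasts had medians of 9405 UMIs in the Dll1+ and 7362 in the Dll1- library. The libraries shared 109 barcode sequences, and 1 chosen cell, in the Dll1+ library, carried one of them. No fibroblast was removed as a doublet (2 cells under 1 barcode). Among the chosen cells, 20 in the Dll1+ and 6 in the Dll1- library were among those with the highest doublet scores.

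Myofibroblast-like cells were 137 of 408 fibroblasts of the Dll1+ tumor, 33.6% (29.0 to 38.4, exact Clopper-Pearson interval). They were 43 of 678 fibroblasts of the Dll1- tumor, 6.34% (4.63 to 8.45). Of all cells past the limits they made up 1.29% (1.09 to 1.53) in the Dll1+ and 0.387% (0.280 to 0.520) in the Dll1- tumor. The fibroblasts as a whole were 3.86% (3.50 to 4.24) of Dll1+ and 6.10% (5.66 to 6.56) of Dll1- cells. P-highest fibroblasts numbered 112 (27.5%) in the Dll1+ tumor, against 478 (70.5%) in the Dll1- tumor. X-highest cells were 46 (11.3%) and 45 (6.64%), and L-highest cells 23 (5.64%) and 28 (4.13%), in the Dll1+ and the Dll1- tumor.

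**Figure D1:**
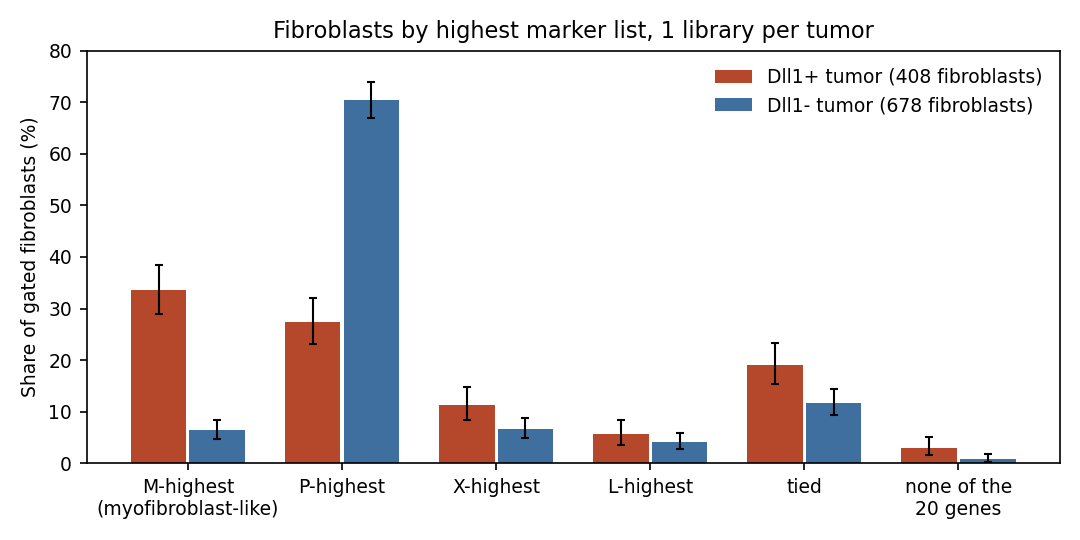
Share of the gated fibroblasts (%, y axis) by the marker list with the most detected genes (x axis), for the Dll1+ (left bars) and the Dll1- library (right bars), with exact 95% intervals for counting error. M-highest cells stand at 33.6% in the Dll1+ and 6.34% in the Dll1- library, and P-highest cells at 27.5% and 70.5%.

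The share in the Dll1+ tumor stayed above that in the Dll1- tumor under 8 other settings, which gave 21.6% to 33.5% in the Dll1+ and 3.835% to 7.34% in the Dll1- tumor. When every fibroblast was thinned to 2000 UMIs before its markers were counted, the shares were 29.1% (116 of 399) in the Dll1+ and 7.34% (48 of 654) in the Dll1- tumor. The lowest Dll1- share came when Acta2 and Tagln were left out of the rule, which chose 90 cells (22.1%) in the Dll1+ and 26 (3.835%) in the Dll1- tumor. In a sort of dissociated cells, fewer cells of a type in the tissue and poorer release of them cannot be told apart.

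The class is defined by a threshold on a count of genes, and some cells lie near it. The M list led by 1 gene in 45 Dll1+ and 11 Dll1- cells and by 2 or more in 92 and 32 cells. Another 25 Dll1+ and 20 Dll1- fibroblasts were left out because M tied with another list for the highest count. Just inside the rule, at a lead of 1 gene, Tagln averaged 455 CPM (a gene's UMIs per 1000000 UMIs of the cells summed) in Dll1+ and 355 CPM in Dll1- cells. Just outside, in the tied cells, Tagln stood at 24.3 CPM in both tumors. Acta2 stood at 330 and 508 CPM inside, and at 52.7 and 34.0 CPM outside, in Dll1+ and Dll1- cells.

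The genes that chose the cells had the following levels. Tagln (transgelin, an actin-binding protein of contractile cells, chromosome 9, 45929619 to 45936058, mm10) stood at 889 CPM in the chosen cells, against 8.25 CPM in the other fibroblasts of the Dll1+ tumor. Its levels in the Dll1- tumor were 1241 and 18.2 CPM. Acta2 (chromosome 19, 34241090 to 34255590) stood at 603 against 16.1 CPM in the Dll1+ and 823 against 15.2 CPM in the Dll1- tumor. Thbs4, a matrix glycoprotein known from tendon and muscle, stood at 219 against 4.81 CPM in the Dll1+ and 113 against 0.70 CPM in the Dll1- tumor. Cpxm2, a carboxypeptidase-like protein, stood at 465 against 15.8 CPM and at 183 against 5.95 CPM. Ltbp2, a fibrillin-binding protein of the TGF-beta binding protein family, stood at 326 against 22.7 CPM and at 370 against 6.83 CPM. At least 1 Acta2 UMI was found in 70.1% of the Dll1+ and 74.4% of the Dll1- chosen cells. In epithelial cells, which should lack Acta2 and had median depths of 9648.5 and 11122 UMIs, the shares were 5.3% and 1.5%. Thinned to 2000 UMIs, the shares were 38.3% and 46.5% of the chosen cells and 1.43% and 0.306% of the epithelial cells. The gate genes Dcn (decorin) and Dpt (dermatopontin), matrix proteins that helped to choose all fibroblasts here, were lower in the chosen cells. Dcn stood at 2735 against 5583 CPM in the Dll1+ and 1685 against 4730 CPM in the Dll1- tumor. Dpt stood at 276 against 1611 CPM and at 325 against 1419 CPM.

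Promoters are shown for Acta2, which chose the cells, and for Myl9, which did not. Among contractile genes outside the rule with at least 50 UMIs, Myl9 had the largest ratio in the Dll1+ tumor. Contractile genes are known targets of serum response factor, which binds the CArG box, and of TEAD factors, which bind the MCAT motif. Each sequence is a 300-base window around the annotated start, from RefSeq on GRCm38.p6, written 5′ to 3′ on the gene's strand. Acta2 lies on the minus strand at chr19:34255324-34255623, and the capitals mark an MCAT match (CATTCC, here as its reverse complement). Myl9 lies on the plus strand at chr2:156775214-156775513, and the capitals mark a CArG box. Only the exact form CCWWWWWWGG, with W for A or T, was searched and counted as a CArG box. The Acta2 window holds ccctatatgg and ccttgtttgg, each 1 base off this form, and they were left unmarked.
Acta2: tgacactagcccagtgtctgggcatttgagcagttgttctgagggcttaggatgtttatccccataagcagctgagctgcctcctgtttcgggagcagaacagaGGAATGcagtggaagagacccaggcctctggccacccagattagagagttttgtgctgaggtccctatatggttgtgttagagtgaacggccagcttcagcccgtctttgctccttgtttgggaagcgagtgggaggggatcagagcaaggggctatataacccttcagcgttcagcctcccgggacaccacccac
Myl9: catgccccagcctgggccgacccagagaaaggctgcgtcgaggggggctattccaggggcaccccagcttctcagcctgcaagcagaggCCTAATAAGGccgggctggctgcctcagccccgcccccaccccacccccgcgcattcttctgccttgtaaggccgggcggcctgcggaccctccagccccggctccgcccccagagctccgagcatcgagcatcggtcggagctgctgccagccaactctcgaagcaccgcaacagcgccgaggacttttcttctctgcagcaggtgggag
The Acta2 match began at base -146 and the Myl9 match at base -161 from the start, and the matches do not overlap another motif searched. On either strand, a CArG box stood in 535 of 32851 promoters of the table (1.63%) and an MCAT motif in 4817 (14.7%). Of 30 promoters of the contractile list, 4 held a CArG box (13.3%: Cnn2, Myl6, Myl9 and Vcl) and 10 an MCAT motif (33.3%). Of the 5 genes of the M list all but Tagln were matched to 1 promoter each, and MCAT motifs stood in those of Acta2, Cpxm2 and Thbs4. A match is a stretch of letters and not a measured site.

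The other contractile genes, which the rule did not use, were more often higher than lower in the chosen cells of both tumors. Genes were counted when they had at least 50 UMIs over the groups compared, and called at a 1.5-fold difference of CPM plus 1. Of 26 genes of the contractile and actin cytoskeleton list, 21 were counted in the Dll1+ tumor, of which 11 were higher and 2 lower in the chosen cells (8.53% and 11.1% of all 7870 genes counted). Of the 19 counted in the Dll1- tumor, 12 were higher and 1 lower (14.2% and 18.7% of all 8551). The same shares over all genes stand beside the counts of every later list, chosen cells over other fibroblasts. The list's median log2 ratio was 0.63 in the Dll1+ and 0.78 in the Dll1- tumor, beside 0.01 and 0.02 over all genes counted. The chosen cells held 1614475 UMIs in the Dll1+ and 485929 in the Dll1- tumor. At equal levels, a gene at the minimum of 50 UMIs has 17.8 of them in the chosen Dll1+ cells and 3.92 in the chosen Dll1- cells, so ratios scatter more in the Dll1- tumor. The other fibroblasts were also a different mix, with P-highest cells 112 of 271 in the Dll1+ and 478 of 635 in the Dll1- tumor. Ratios of the 2 tumors therefore have unlike baselines. With P-, X- and L-highest cells weighted alike, 828 genes were higher and 853 lower in the Dll1+ tumor. In the Dll1- tumor 1090 were higher and 1418 lower.

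Myl9, the regulatory light chain of nonmuscle and smooth muscle myosin, stood at 165 CPM in the chosen cells and 18.9 CPM in the other fibroblasts of the Dll1+ tumor, a log2 ratio of 3.06 (2.71 to 3.58, exact conditional binomial interval of the plain ratio). Its levels in the Dll1- tumor were 163 and 17.9 CPM, a log2 ratio of 3.12 (2.74 to 3.62). The levels of the chosen cells were about equal in the tumors. Tpm2, a tropomyosin that lies along actin filaments, stood at 243 and 44.0 CPM in the Dll1+ tumor (2.44, 2.18 to 2.77) and at 372 and 41.5 CPM in the Dll1- tumor (3.14, 2.88 to 3.45). Tpm1 and Actn1 (an actin cross-linker) were higher as well, Tpm1 at 662 against 287 CPM and Actn1 at 318 against 86.6 CPM in the Dll1+ tumor. Their log2 ratios were 1.20 and 1.87 in the Dll1+ tumor, and 1.34 and 2.05 in the Dll1- tumor, where Tpm1 had 636 CPM and Actn1 282 CPM in the chosen cells. Actg2, the smooth muscle gamma actin, had 27 UMIs in the chosen cells and 0 in the other fibroblasts of the Dll1+ tumor, and 4 and 3 in the Dll1- tumor. Of the 27 UMIs, 21 lay in 1 cell, and 5 of 137 chosen Dll1+ cells had any. The lowest ratios of the list belonged to Zyx and Tns1, proteins of focal adhesions, in both tumors. Zyx stood at 134 against 299 CPM in the Dll1+ tumor (-1.15) and at 154 against 288 CPM in the Dll1- tumor (-0.90). Tns1 stood at 65.7 against 120.6 CPM in the Dll1+ tumor (-0.87) and at 80.3 against 114.5 CPM in the Dll1- tumor (-0.51). Among co-factors of serum response factor, Fhl2 stood at 95.4 against 21.0 CPM (2.13) in the Dll1+ and 136 against 20.8 CPM (2.65) in the Dll1- tumor.

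Acta2 and Tagln were also measured where neither chose the cells. With M counted on Thbs4, Cpxm2 and Ltbp2 alone, Acta2 stood at 600 CPM in the 90 Dll1+ cells so chosen and at 109.9 CPM in the other fibroblasts, a log2 ratio of 2.44 (2.26 to 2.64). In the 26 Dll1- cells Acta2 stood at 870 against 41.2 CPM (4.37, 4.14 to 4.66). Tagln stood at 815 against 171 CPM in the Dll1+ tumor (2.25, 2.10 to 2.41) and at 1704 against 39.0 CPM in the Dll1- tumor (5.41, 5.22 to 5.68).

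**Figure D2:**
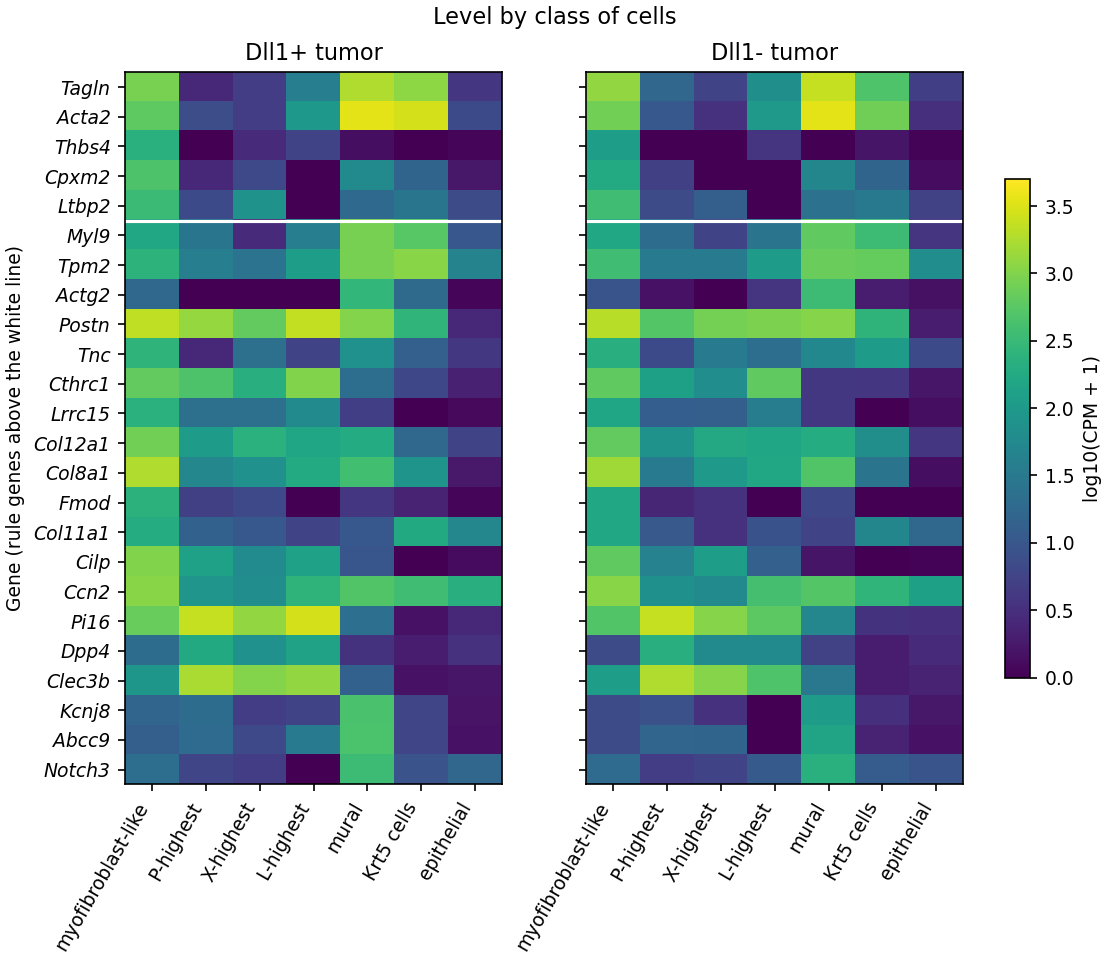
Level of each gene, log10 of CPM plus 1 (colour), in myofibroblast-like cells, the P-, X- and L-highest fibroblasts, mural, Krt5 and epithelial cells (x axis) of the Dll1+ (left) and Dll1- (right) library; the genes above the white line chose the cells. Fmod, at 240 and 161 CPM in myofibroblast-like cells, stood at no more than 5.6 CPM in the 3 other fibroblast classes, while Acta2 and Tagln were highest in mural cells.

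Mural cells carry the same contractile genes, so their defining markers were measured in the chosen cells. Mural cells needed 3 or more Rgs5 UMIs, and UMIs of more than 1 of Cspg4, Notch3, Kcnj8, Abcc9, Des and Mcam. They had Acta2 at 3554 CPM in the Dll1+ library and at 3508 CPM in the Dll1- library. Their 11 mural markers, which include the genes from Cspg4 to Mcam, summed to 4662 and 2402 CPM, so that sum was partly fixed by the choice. In the chosen cells these markers summed to 201 CPM in the Dll1+ and 121 in the Dll1- tumor, and in the other fibroblasts to 123 and 67.0 CPM. Rgs5 was held under 3 UMIs in every fibroblast by the gate, so its low level was fixed by the choice. The chosen cells had Rgs5 at 10.5 CPM in the Dll1+ tumor and at 0 UMIs in the Dll1- tumor. The other fibroblasts had it at 4.47 and 1.40 CPM. Thbs4, at 219 and 113 CPM in the chosen cells, stood at 0.36 CPM in Dll1+ and 0 in Dll1- mural cells. The 8 smooth muscle markers summed to 74.9 CPM in Dll1+ and 43.2 CPM in Dll1- chosen cells, and to 41.9 and 28.9 CPM in the other fibroblasts. Their sums were 984 and 838 CPM in mural cells, which Des, 1 of these markers, helped to choose. Myh11 and Pln were at 0 in the chosen cells of both tumors, but Pln was also at 0 in the mural cells of both. With Rgs5 at 0 UMIs required, the chosen cells were 32.6% of the Dll1+ and 6.42% of the Dll1- fibroblasts. The 4 endothelial markers summed to 6.19 CPM and 0 in Dll1+ and Dll1- chosen cells, and to 5.84 and 7.70 CPM in the other fibroblasts. The 5 leukocyte markers were higher in the chosen cells, at 16.1 CPM (26 UMIs) and 18.5 CPM (9 UMIs), against 7.56 and 4.38 CPM. Ptprc and C1qa were at 0 in the chosen cells of both tumors. Ptprc was also at 0 in the mural cells of both libraries, so it does not set the chosen cells apart. The 5 epithelial markers summed to 1445 CPM in the Dll1+ and 2984 in the Dll1- chosen cells, and to 1287 and 2514 CPM in the other fibroblasts. With cells of more than 1 UMI over Epcam, Krt8 and Krt18 left out, 64 chosen cells remained in the Dll1+ and 20 in the Dll1- tumor, 31.2% and 5.71% of the fibroblasts left. The 4 myoepithelial markers summed to 96.0 CPM in Dll1+ and 103 CPM in Dll1- chosen cells, and to 75.9 and 50.6 CPM in the other fibroblasts. In the Dll1- tumor the 2 counted ones, Krt14 and Krt17, were higher in the chosen cells. The Krt5 cells, which Krt14 helped to choose, had sums of 5610 and 6481 CPM.

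Genes reported for the matrix-producing myofibroblastic cancer-associated fibroblasts (CAFs) were mostly higher in the chosen cells. In the Dll1+ tumor 11 of 18 counted genes of this list were higher and 1 lower, and in the Dll1- tumor 12 of 17 were higher and 0 lower. The median log2 ratios were 0.90 and 1.94. Tnc (tenascin C, a matrix glycoprotein of healing and tumor stroma) stood at 253 against 12.7 CPM in the Dll1+ tumor, a log2 ratio of 4.21 (3.83 to 4.84). Tnc in the Dll1- tumor stood at 218 against 9.45 CPM (4.39). Inhba, a subunit of activins, had 50 UMIs in the chosen cells and 1 in the other fibroblasts of the Dll1+ tumor (4.57, 3.95 to 11.83), and 15 and 32 UMIs in the Dll1- tumor (2.27, 1.47 to 3.39). Col8a1, a chain of the short-chain collagen VIII, stood at 1822 against 161 CPM (3.49) in the Dll1+ and 1500 against 54.4 CPM (4.76) in the Dll1- tumor. Igfbp3, a carrier of insulin-like growth factors, stood at 491 against 71.1 CPM (2.77) and at 286 against 11.0 CPM (4.58). Lrrc15, a membrane protein of TGF-beta induced CAFs, stood at 232 against 35.4 CPM (2.68) and at 152 against 14.5 CPM (3.30). Thy1, a surface protein of many fibroblasts, had the lowest ratio of the list in both tumors. It stood at 261 against 411 CPM (-0.65) in the Dll1+ tumor and at 294 against 357 CPM (-0.28) in the Dll1- tumor. Fap, a surface protease often used to mark CAFs, stood at 66.9 against 91.7 CPM (-0.45) and at 76.1 against 82.1 CPM (-0.11).

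Cthrc1 and Postn of this list, and Cxcl14 of the inflammatory CAF list, stood at different levels in the other fibroblast classes. Cthrc1, a secreted collagen triple helix protein, stood at 657 CPM in the chosen Dll1+ cells, against 1011 CPM in L-highest, 462 CPM in P-highest and 209 CPM in X-highest cells. Cthrc1 in the Dll1- tumor stood at 632 CPM in the chosen and 619 CPM in the L-highest cells, against 124 CPM in P-highest cells. Postn (periostin) stood at 2247 CPM in the chosen and 2265 CPM in the L-highest cells of the Dll1+ tumor. Postn in the Dll1- tumor stood at 2029 CPM in the chosen cells, against 937 CPM in L-highest and 518 CPM in P-highest cells. Cxcl14, a chemokine, stood at 1956 CPM in chosen and 1400 CPM in X-highest cells of the Dll1+ tumor, and at 2004 and 1467 CPM in the Dll1- tumor, while P-highest cells had 178 and 83.6 CPM.

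Across all genes outside the rule, 7695 were counted in both tumors. Of these, 602 were higher in the chosen cells of the Dll1+ and 1086 in those of the Dll1- tumor, and 353 were higher in both (58.6% and 32.5%). Another 857 were lower in the Dll1+ and 1311 in the Dll1- tumor, and 518 were lower in both (60.4% and 39.5%). Genes called in opposite directions numbered 31 and 23. The gene with the largest ratio shared by the tumors was Fmod (fibromodulin, a proteoglycan that binds collagen fibrils, chromosome 1, 134037254 to 134048277). Fmod stood at 240 CPM in the chosen cells and 5.50 CPM in the other fibroblasts of the Dll1+ tumor (5.21, 4.73 to 6.27), and at 161 and 1.93 CPM in the Dll1- tumor (5.79, 5.46 to 7.44). Epithelial cells had Fmod at 0.117 CPM in the Dll1+ and at 0.017 in the Dll1- library, and mural cells at 2.86 and 5.38 CPM.

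**Figure D3:**
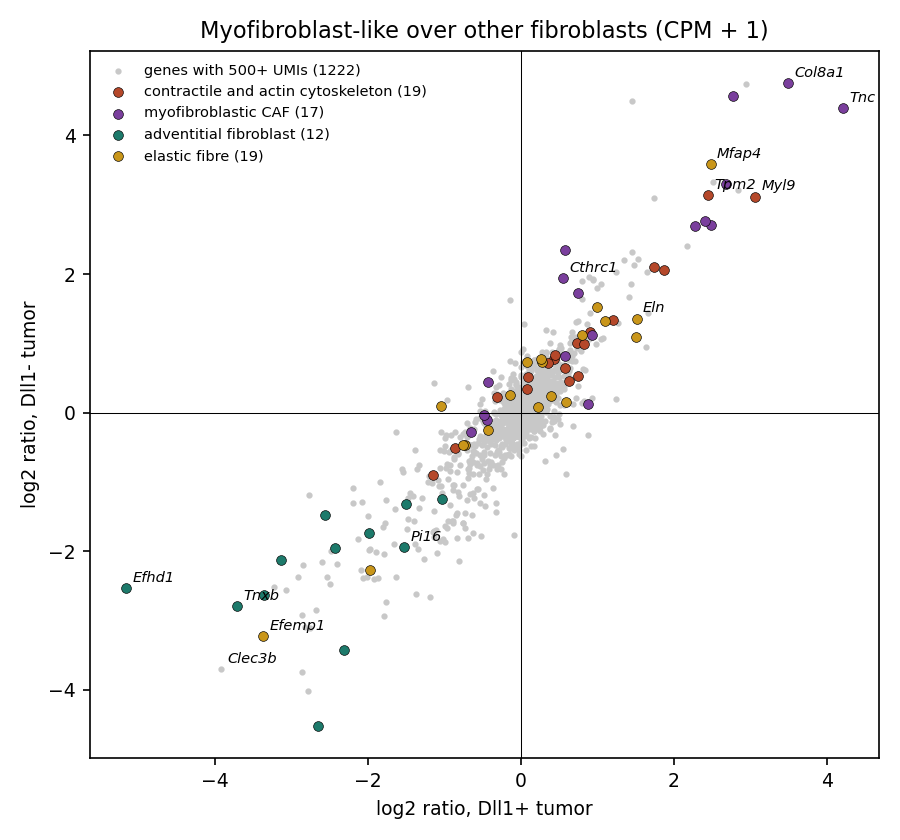
Log2 ratio of CPM plus 1, myofibroblast-like over other fibroblasts, in the Dll1+ (x axis) and the Dll1- (y axis) tumor; grey points are genes with at least 500 UMIs in both tumors, and coloured points are the counted genes of 4 lists. Myl9, Tnc and Col8a1 lie at the upper right, and the genes of the adventitial list lie at the lower left.

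After Fmod and Tnc, the highest ratios shared by both tumors belonged to the following genes, beside Col8a1 and Myl9. C1qtnf3, a secreted relative of complement C1q and TNF, stood at 600 against 37.8 CPM (3.95) in the Dll1+ and 638 against 17.0 CPM (5.15) in the Dll1- tumor. Col8a2, the partner chain of Col8a1, stood at 96.6 against 6.53 CPM (3.697) and at 96.7 against 1.05 CPM (5.57). Col11a1, a fibrillar collagen chain of cartilage, stood at 193 against 20.3 CPM (3.19) and at 165 against 9.10 CPM (4.04). Ccn4 and Ccn2 are matricellular proteins induced by Wnt and TGF-beta signals. Ccn4 had log2 ratios of 3.14 in the Dll1+ and 5.07 in the Dll1- tumor. Ccn2 stood at 1095 against 152 CPM (2.84) and at 1093 against 117 CPM (3.21). Mgp, an inhibitor of calcification, stood at 6029 against 783 CPM (2.94) in the Dll1+ and 3237 against 120 CPM (4.74) in the Dll1- tumor, and mural cells held it at 4580 and 4507 CPM. Cdkn2b, an inhibitor of the cyclin D kinases, stood at 113 against 12.7 CPM (3.05) and at 134 against 7.53 CPM (3.98). H19, an imprinted noncoding RNA, stood at 157 against 19.2 CPM (2.97) and at 185 against 8.05 CPM (4.36). Pdgfrl, Ecrg4, Gask1b and Clec11a had ratios of 3.25, 3.20, 3.10 and 2.91 in the Dll1+ tumor and of 5.42, 5.05, 3.36 and 3.49 in the Dll1- tumor.

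The lowest ratios shared by both tumors were led by Clec3b, Efemp1 and Cadm3. Clec3b (tetranectin) stood at 89.8 CPM in the chosen cells, against 1374 CPM in the other fibroblasts of the Dll1+ tumor (-3.92), and at 115 against 1517 CPM in the Dll1- tumor (-3.71). Efemp1 (fibulin 3) stood at 78.0 against 815 CPM (-3.37) and at 96.7 against 914 CPM (-3.23). Tnxb (tenascin X, a matrix protein of connective tissue) stood at 80.5 against 1063 CPM (-3.71) and at 142 against 992 CPM (-2.80). Sfrp4, a secreted Wnt antagonist, stood at 39.6 against 279 CPM (-2.79) and at 18.5 against 315 CPM (-4.02). Cadm3, Mustn1, Scara3, Gda, Sbsn and Pla1a completed the list, with ratios between -4.37 and -2.67 in the Dll1+ and between -3.11 and -2.85 in the Dll1- tumor.

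Of the 13 genes of the adventitial fibroblast list, 12 of 12 counted were lower in the chosen cells of the Dll1+ tumor and 12 of 13 in those of the Dll1- tumor, and none was higher in either. The median log2 ratios were -2.49 and -1.96. P-highest fibroblasts, which the rule left out of the chosen cells, had Pi16 at 2365 CPM in the Dll1+ and at 2356 in the Dll1- tumor, so the direction of this list is partly fixed by the choice of cells. Pi16 stood at 681 against 1959 CPM (-1.52) in the Dll1+ and 494 against 1904 CPM (-1.95) in the Dll1- tumor. Dpp4 stood at 19.2 against 126 CPM (-2.66) and at 6.17 against 164 CPM (-4.52, from 3 UMIs in the chosen Dll1- cells). Efhd1 had the lowest ratio in the Dll1+ tumor, with 3 UMIs in the chosen cells and 294 in the others (-5.16, -8.05 to -4.20). Igfbp6 was nearest to 0 among those called lower in both, at -1.03 and -1.25.

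**Figure D4:**
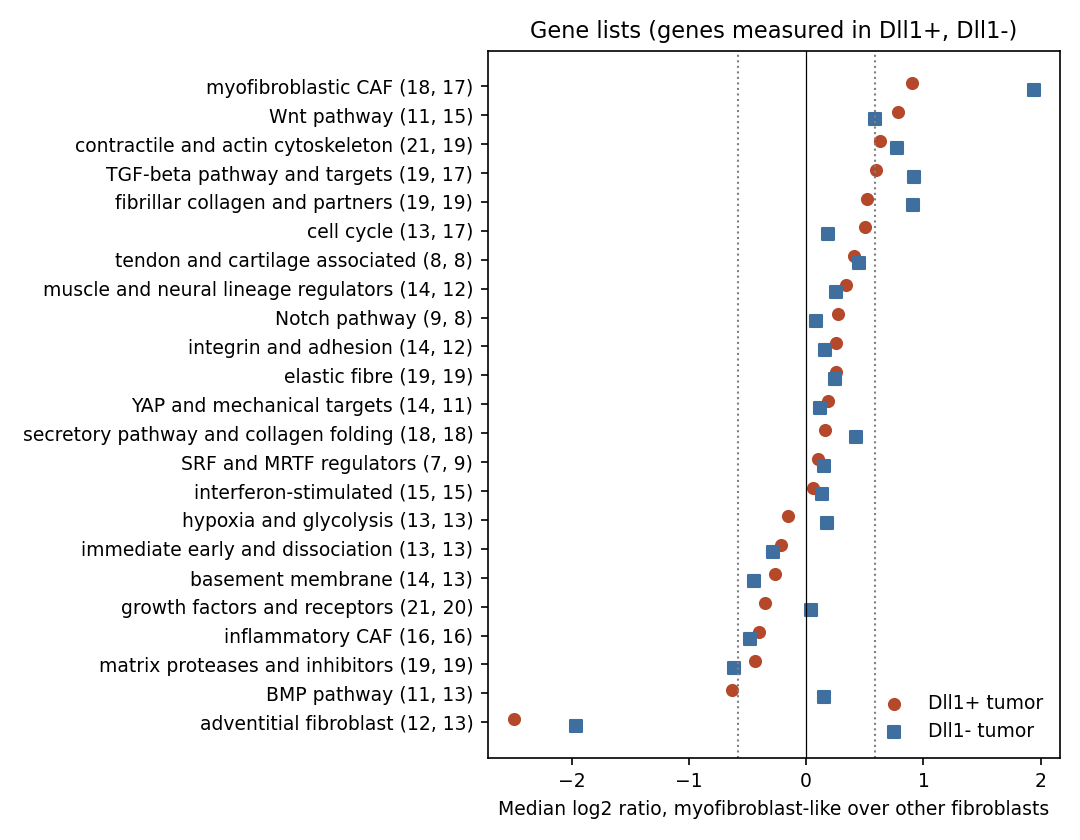
Median log2 ratio, myofibroblast-like over other fibroblasts (x axis), of the counted genes of each list (y axis), in the Dll1+ (circles) and the Dll1- (squares) tumor; dotted lines mark a 1.5-fold difference, and numbers give the genes counted. The myofibroblastic CAF list stands at 0.90 and 1.94, and the adventitial list at -2.49 and -1.96.

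More genes of the collagen list were higher than lower in the chosen cells. In the Dll1+ tumor 9 of 19 counted genes of the fibrillar collagen list were higher and 3 lower, with a median of 0.52. In the Dll1- tumor 12 of 19 were higher and 2 lower, with a median of 0.91. Collagen I itself differed by less. Col1a1 stood at 10622 against 8747 CPM (0.28) in the Dll1+ and 6425 against 3512 CPM (0.87) in the Dll1- tumor. Col12a1, a collagen that sits on the surface of fibrils, stood at 825 against 170 CPM (2.27) and at 646 against 98.9 CPM (2.70). Fn1 (fibronectin) was lower in the chosen cells, at 3396 against 7817 CPM (-1.20) and 3416 against 6455 CPM (-0.92). Col5a3 was lower in the Dll1+ tumor, at 172 against 380 CPM (-1.14), and stood at 348 against 257 CPM (0.43) in the Dll1- tumor.

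Genes of elastic fibres went both ways. In the Dll1+ tumor 7 of 19 were higher and 5 lower, and in the Dll1- tumor 9 were higher and 2 lower, with medians of 0.26 and 0.25. Mfap4, a fibril-associated protein, stood at 715 against 127 CPM (2.48) in the Dll1+ and 601 against 49.2 CPM (3.58) in the Dll1- tumor. Eln (elastin) stood at 1666 against 583 CPM (1.51) and at 924 against 361 CPM (1.35). Ltbp1 and Efemp1 were lowest, Ltbp1 at 45.8 against 182 CPM (-1.97) and at 49.4 against 243 CPM (-2.28), so that it lay opposite to Ltbp2 of the rule. Among genes of tendon and cartilage, 4 of 8 were higher and 2 lower in both tumors. Cilp, a secreted protein of cartilage, stood at 996 against 174 CPM (2.51) and at 632 against 61.8 CPM (3.33). Tnmd (tenomodulin, a membrane protein of tendon cells) had 47 UMIs in the chosen cells and 3 in the others of the Dll1+ tumor, and 4 and 0 in the Dll1- tumor. Comp stood at 75.6 against 49.1 CPM (0.61) and at 49.4 against 7.53 CPM (2.56). Prg4 (lubricin) was lower, at 23.5 against 175 CPM (-2.84) and 32.9 against 155 CPM (-2.20).

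Of the list of matrix proteases and their inhibitors more genes were lower than higher, 8 against 3 of 19 in the Dll1+ and 10 against 3 of 19 in the Dll1- tumor, with medians of -0.43 and -0.61. The inhibitors Timp1 and Timp3 were among the genes that were higher. Timp3 stood at 1434 against 497 CPM (1.53) and at 1416 against 304 CPM (2.22), and Timp1 at 870 against 454 CPM (0.94) and at 1144 against 304 CPM (1.91). Htra3, a serine protease, stood at 135 against 924 CPM (-2.77) in the Dll1+ and 327 against 749 CPM (-1.19) in the Dll1- tumor. Genes of the basement membrane were higher in 1 and lower in 3 of 14 in the Dll1+ tumor, and higher in 2 and lower in 5 of 13 in the Dll1- tumor. Col15a1 was highest of them (0.79 and 1.06) and Nid1 lowest (-1.49 and -1.68).

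In the TGF-beta pathway the ligands Tgfb1 and Tgfb3 were higher in the chosen cells, and the receptors Tgfbr2 and Tgfbr3 lower. The ligand Tgfb2 was not called higher in either tumor, and was lower in the chosen cells of the Dll1- tumor. Of the list, 10 of 19 counted genes were higher and 2 lower in the Dll1+ tumor (median 0.60), and 12 of 17 higher and 3 lower in the Dll1- tumor (median 0.92). The ligand Tgfb1 stood at 84.2 against 28.2 CPM (1.55, 1.17 to 1.99) in the Dll1+ and 148 against 18.0 CPM (2.97, 2.58 to 3.49) in the Dll1- tumor. Tgfb3 stood at 134 against 23.4 CPM (2.47) and at 132 against 18.6 CPM (2.76). Tgfb2 had 93 UMIs from 48 of 137 chosen cells and 158 from 90 of 271 other fibroblasts of the Dll1+ tumor. In the Dll1- tumor Tgfb2 had 12 UMIs from 9 of 43 chosen cells and 344 from 196 of 635 others. The receptor Tgfbr2 was lower, at 406 against 784 CPM (-0.95) and at 214 against 634 CPM (-1.56). The co-receptor Tgfbr3 stood at 115 against 234 CPM (-1.01) and at 65.9 against 237 CPM (-1.83). Tgfbr1 stood at 35.3 against 33.0 CPM (0.10, -0.40 to 0.59) and at 34.98 against 35.2 CPM (-0.01, -0.82 to 0.71).

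Of the Wnt list, 7 of 11 genes were higher and 2 lower in the Dll1+ tumor, and 8 of 15 higher and 4 lower in the Dll1- tumor, with medians of 0.79 and 0.59. Sfrp1, a secreted Wnt-binding protein, stood at 982 against 311 CPM (1.66) and at 383 against 140 CPM (1.44). Dkk3 stood at 119 against 34.7 CPM (1.75) and at 94.7 against 9.98 CPM (3.12), while Sfrp4 and Wnt2 were lower, Wnt2 at -1.82 and -2.03. Of the BMP list, 2 genes were higher and 6 lower of 11 in the Dll1+ tumor, and 3 higher and 5 lower of 13 in the Dll1- tumor. Id1, a target of BMP signals, was highest (1.43 and 2.11), and the antagonist Chrdl1 was lower in both tumors, with 18 UMIs in the chosen cells and 72 in the others of the Dll1+ tumor and 1 and 339 in the Dll1- tumor.

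Because the tumors are named for a Notch ligand, the Notch genes are given apart. Of the list, 1 gene was higher and 2 lower of 9 in the Dll1+ tumor, and 2 higher and 1 lower of 8 in the Dll1- tumor. Over all genes counted, 8.53% were higher and 11.1% lower in the Dll1+ tumor, and 14.2% and 18.7% in the Dll1- tumor. The list's medians of 0.27 and 0.09 changed sign under 3 and 7 of 14 other settings. Heyl, a target of Notch in mural cells, had 46 UMIs in the chosen and 13 in the other fibroblasts of the Dll1+ tumor (2.43, 1.76 to 3.69), and 10 and 3 in the Dll1- tumor. Hes1, a target in many cells, stood at 146 against 97.9 CPM (0.57, 0.32 to 0.83) and at 109.1 against 67.6 CPM (0.68, 0.25 to 1.11). Rbpj, the DNA-binding partner of the activated receptors, was lower, at 49.6 against 119.9 CPM (-1.26) and at 74.1 against 151 CPM (-1.02). The ligand Jag1 stood at 49.6 against 40.5 CPM (0.28) in the Dll1+ and 98.8 against 39.6 CPM (1.30, 0.84 to 1.77) in the Dll1- tumor. Notch1 and Notch2 had ratios of 0.27 and 0.18 in the Dll1+ and of 0.20 and -0.54 in the Dll1- tumor, all with intervals that include 0. Notch3, below the minimum for counting, had 33 UMIs in the chosen and 15 in the other fibroblasts of the Dll1+ tumor. In the Dll1- tumor Notch3 had 9 and 26 UMIs. It was found in 17.5% of chosen and 4.43% of other Dll1+ fibroblasts, and in 16.3% and 3.78% of Dll1- cells. After thinning, cells with it were 2 of 133 and 5 of 266 (Dll1+), and 2 of 43 and 3 of 611 (Dll1-).

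Dll1 itself (chromosome 17, 15367354 to 15376872, mm10) had 25 UMIs in the chosen cells of the Dll1+ tumor (15.5 CPM, 10.0 to 22.9) and 0 in those of the Dll1- tumor. The 25 UMIs came from 14 of 137 cells (10.2%), and 0 of 43 Dll1- cells had one, which allows a share of up to 8.22% by the exact interval. Epithelial cells of the Dll1+ library had Dll1 at 49.5 CPM, with a UMI in 31.1% of cells at a median depth of 9648.5 UMIs, against 10566 in the chosen cells. Other fibroblasts had a Dll1 UMI in 6.64% and mural cells in 6.71% of Dll1+ cells. After thinning to 2000 UMIs, 1 of 133 chosen Dll1+ cells had a Dll1 UMI, so no level above the background of these other classes is read from it.

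Genes of inflammatory CAFs were lower in 7 of 16 in both tumors, and higher in 2 in the Dll1+ and 5 in the Dll1- tumor. The chemokine Cxcl14 had the highest ratio of this list in both tumors, at 1956 against 584 CPM (1.74) and at 2004 against 233 CPM (3.10). Ly6c1 stood at 231 against 1405 CPM (-2.60) and at 327 against 1465 CPM (-2.16), and C3 (complement component C3) at 475 against 1640 CPM (-1.79) and at 327 against 2511 CPM (-2.94). Il6 stood at 74.9 against 165 CPM (-1.13) and at 41.2 against 137 CPM (-1.72). Ccl2, a chemokine for monocytes, stood at 446 against 491 CPM (-0.14) in the Dll1+ and 1099 against 357 CPM (1.62) in the Dll1- tumor. Among growth factors and their receptors, 8 of 21 were higher and 8 lower in the Dll1+ tumor, and 7 higher and 8 lower of 20 in the Dll1- tumor. Igfbp2 stood at 290 against 58.8 CPM (2.28) in the Dll1+ and 665 against 5.08 CPM (6.78, 6.48 to 7.63) in the Dll1- tumor, and Igfbp5 at 746 against 1955 CPM (-1.39) and at 477 against 1776 CPM (-1.89). Epithelial cells had Igfbp2 at 250.6 CPM in the Dll1+ and at 21.8 in the Dll1- library. Of adhesion genes, Cdh11 and Itgbl1 were highest. Cdh11, a cadherin of mesenchymal cells, stood at 333 against 61.2 CPM (2.43) and at 253 against 24.7 CPM (3.31). Ddr2, a collagen receptor, stood at 60.1 against 265 CPM (-2.12) and at 84.4 against 301 CPM (-1.82). Ankrd1, a target of YAP, had 3 UMIs in the chosen and 60 in the other fibroblasts of the Dll1+ tumor, and 26 and 5 in the Dll1- tumor.

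The chosen cells varied among themselves. The 5 M genes were found as 1, 2, 3, 4 and 5 genes in 11, 38, 28, 36 and 24 Dll1+ cells and in 2, 12, 16, 8 and 5 Dll1- cells. Acta2 or Tagln alone was found in 13 Dll1+ and 7 Dll1- cells, Thbs4, Cpxm2 or Ltbp2 alone in 26 and 4 cells, and both kinds in 98 and 32 cells. In the Dll1+ tumor Myl9 stood at 284 CPM in cells with contractile markers alone, 10.8 CPM in those with matrix markers alone and 190 CPM in those with both. Tpm2 followed the same order, at 451, 54.1 and 269 CPM. Cilp ran the other way, at 186, 1176 and 1023 CPM. Notch3, a receptor of mural cells, had 8 UMIs in the 13 Dll1+ cells with contractile markers alone (78.4 CPM), and 3 and 22 UMIs in the other sets (10.8 and 17.8 CPM). Of the other mural markers, these 13 cells had 20 UMIs of Ndufa4l2, 5 each of Abcc9 and Des, 4 each of Kcnj8 and Higd1b, and 3 of Mcam. They had 0 of Cspg4, Cox4i2, Gja4 and Vtn. Some of these 13 cells may thus be mural, which was not tested. Cells with contractile markers alone were shallower, with a median of 5086 UMIs against 9612 and 11685. Col8a1 stood at 999 CPM, 851 CPM and 2108 CPM in the same 3 sets. Fmod stood at 106.8, 94.2 and 297 CPM in Dll1+ cells with 1, 2 and 3 or more M genes. In the Dll1- tumor the sets of 7 and 4 cells are too few for an order to be read. Tagln ranged from 0 to 160 UMIs per 10000 over the single Dll1+ cells, with a median of 3.35, and 5 cells held 25% of its UMIs. In the Dll1- tumor its range was 0 to 79.6 with a median of 4.34, and 5 of 43 cells held 66.2% of its UMIs.

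Between the tumors, most genes of the chosen cells lay within 1.5-fold. Of 5191 genes counted, 591 were higher in the Dll1+ cells (11.4%) and 338 lower (6.51%), with a median log2 ratio of 0.00. With cells of more than 1 epithelial UMI left out, 262 were higher and 228 lower, from 64 Dll1+ and 20 Dll1- cells. All 5 epithelial markers were lower in the Dll1+ cells (median -0.95), as were 4 of 5 in the other fibroblasts (median -0.97). Of the contractile list 1 of 20 was higher and 2 lower (median -0.21, and 0.06 with cells weighted alike by their number of M genes). Myl9 stood at 165 CPM in Dll1+ and 163 CPM in Dll1- cells (0.02, -0.34 to 0.41), and Tpm2 at 243 and 372 CPM (-0.61, -0.87 to -0.35). The 1 higher gene was Pdlim3, a PDZ and LIM protein of actin filaments, with 105 UMIs in Dll1+ and 0 in Dll1- chosen cells, and with 153 and 21 UMIs in the other fibroblasts. Of the myofibroblastic CAF list 3 of 17 were higher and 0 lower (median 0.15, between -0.09 and 0.50 over 13 other settings). Igfbp3 stood at 491 against 286 CPM (0.78, 0.52 to 1.05), Itga11 at 76.2 against 43.2 CPM (0.80, 0.14 to 1.56) and Lrrc15 at 232 against 152 CPM (0.61, 0.25 to 0.99).

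Fibrillar collagens were higher in 4 and lower in 1 of 19 in the Dll1+ cells (median 0.35). Col1a1 stood at 10622 CPM in Dll1+ and 6425 CPM in Dll1- cells, a log2 ratio of 0.73 (0.67 to 0.78), and at 1.32 in the other fibroblasts. Eln stood at 1666 against 924 CPM (0.85, 0.71 to 1.00), with 0.69 in the other fibroblasts. The Wnt-binding proteins Sfrp2 and Sfrp1 were higher, at 1.76 and 1.36 on the log2 scale, with 1.68 and 1.14 in the other fibroblasts. Of matrix proteases and inhibitors 7 of 18 were higher and 2 lower (median 0.52), with Mmp3 (stromelysin) at 1140 against 445 CPM (1.36) and Adamts5 at 377 against 158 CPM (1.24). Tgfb1 was lower in the Dll1+ cells, at 84.2 against 148 CPM (-0.81, -1.24 to -0.38), and Tgfbr2 higher, at 406 against 214 CPM (0.92, 0.62 to 1.24). Tgfb2 had the highest ratio of the TGF-beta list, with 93 UMIs from 48 Dll1+ cells and 12 from 9 Dll1- cells. Of the Notch list 0 of 6 were higher and 1 lower, Jag1, at 49.6 against 98.8 CPM (-0.98, -1.53 to -0.45). Igfbp2 stood at 290 CPM in Dll1+ and 665 CPM in Dll1- cells (-1.19), and ran the other way in the other fibroblasts (3.30).

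**Figure D5:**
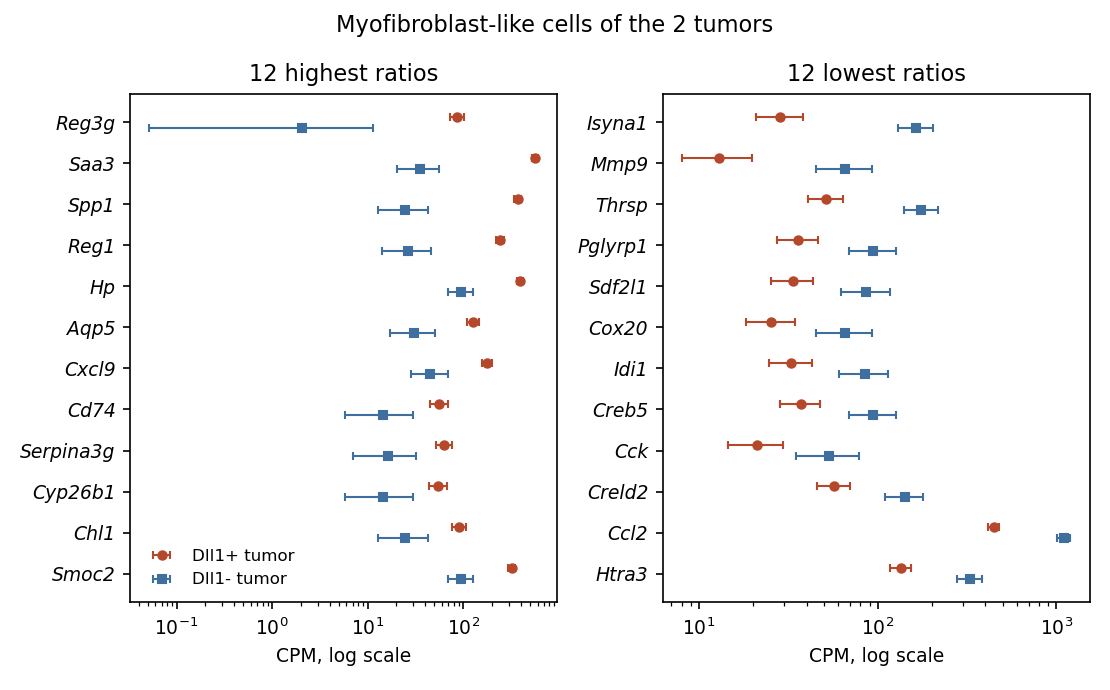
CPM (log scale, x axis) of the 12 genes with the highest (left) and the 12 with the lowest (right) log2 ratio between the myofibroblast-like cells of the Dll1+ (circles) and the Dll1- (squares) tumor, with exact 95% Poisson intervals for counting error. The intervals of the tumors lie apart for all 24 genes shown, which were picked for their ratios.

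Several of the genes with the highest ratios between the tumors rested on few cells. Reg3g and Reg1 are secreted lectins. Reg3g had 140 UMIs from 19 Dll1+ cells (86.7 CPM) and 1 UMI in the Dll1- cells (4.84, 2.90 to 10.71), and Reg1 had 394 UMIs from 24 Dll1+ cells (244 CPM) and 13 from 2 Dll1- cells (26.8 CPM). Epithelial cells had both at no more than 0.070 CPM. Saa3, an acute-phase protein, stood at 564 against 34.98 CPM (3.97), and 275 of its 910 Dll1+ UMIs came from 1 cell. Spp1 (osteopontin) stood at 373 against 24.7 CPM (3.86), and epithelial cells had 584 CPM in the Dll1+ and 66.4 in the Dll1- library. Hp (haptoglobin), Aqp5, Cxcl9, Cd74, Serpina3g, Cyp26b1, Chl1 and Smoc2 had log2 ratios between 1.76 and 2.04. Smoc2, a matricellular protein, came from the largest share of cells among the 12, with 522 UMIs from 102 of 137 Dll1+ cells (323 CPM) and 46 UMIs from 20 of 43 Dll1- cells (94.7 CPM), a ratio of 1.76 (1.34 to 2.24). Epithelial cells had Smoc2 at 1.54 and 1.60 CPM, and in the other fibroblasts its ratio was 2.27. Cxcl9, a chemokine induced by interferon gamma, stood at 178 against 45.3 CPM, and mural cells had 320 CPM in the Dll1+ and 39.4 in the Dll1- library.

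Several of the lowest ratios rested on 1 or a few Dll1- cells. Isyna1, the enzyme that makes inositol phosphate, stood at 28.5 CPM in Dll1+ and 165 CPM in Dll1- cells (-2.49, -3.09 to -1.99), and epithelial cells had 66.6 and 241 CPM. Mmp9 (gelatinase B) had 21 UMIs from 8 Dll1+ cells and 32 from 5 Dll1- cells (-2.25). Thrsp stood at 51.4 against 175 CPM (-1.75), with 59 of its 85 Dll1- UMIs in 1 cell, and all 26 Cck UMIs of the Dll1- cells lay in 1 cell. Creld2 and Sdf2l1, which are induced by stress of the endoplasmic reticulum, stood at 57.0 against 142 CPM (-1.30) and at 33.4 against 86.4 CPM (-1.34). Ccl2 stood at 446 against 1099 CPM (-1.30, -1.46 to -1.14), with 140 of its 534 Dll1- UMIs in 1 cell. Htra3 stood at 135 against 327 CPM (-1.27), with 73 of 159 Dll1- UMIs in 1 cell. Pglyrp1, Cox20, Idi1 and Creb5 had ratios between -1.37 and -1.33, and Pglyrp1 and Creb5, like Ccl2, were not lower in Dll1+ cells once cells with more than 1 epithelial UMI were left out. With 43 Dll1- cells, 1 cell can set such a level, and the intervals do not cover that.

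Cell cycle genes were higher in the chosen cells of the Dll1+ tumor by their UMIs, 6 of 8 counted with a median of 1.58 against the Dll1- cells. That median was -0.08 once the cells with the highest doublet scores were removed. Cells with at least 3 of 9 cycling genes were 15 of 137 in the Dll1+ tumor (10.9%, 6.26 to 17.4) and 3 of 43 in the Dll1- tumor (6.98%, 1.46 to 19.1), and 7 and 1 of them had high doublet scores. Among other fibroblasts they were 11 of 271 and 38 of 635.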

How the data were processed

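Live CD45- cells of 1 Dll1+ and 1 Dll1- tumor were measured on 10x v3 droplets. The authors deposited filtered matrices of raw UMI counts per gene and barcode, which per the file headers came from Cell Ranger 4.0.0. The genome was mm10, per the submitters' processing notes.

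Cells needed at least 1000 UMIs and 500 genes and at most 20% mitochondrial UMIs. No doublets were removed, since the rule names no such step. UMI counts were summed per class and library and scaled to CPM, and ratios are log2 of CPM plus 1. With 1 library a group no test was run: genes with at least 50 UMIs over the classes compared were called at 1.5-fold, leaving out rule, mitochondrial, ribosomal and unnamed predicted genes. Libraries held 117230907 and 135960457 UMIs (Dll1+ and Dll1-). Intervals are exact: Poisson for levels, Clopper-Pearson for shares and conditional binomial for ratios. These intervals leave out variation between cells and between animals.

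Genes named across all genes had at least 50 UMIs and 50 CPM in 1 class and were not over 5 times higher in epithelial, endothelial or Krt5 cells. They are the 16 highest and 10 lowest by the library ratio nearest 0, and the 12 highest and 12 lowest between tumors. Per list the 2 highest and 2 lowest were preferred, with genes of known role beside them that were picked after their values were seen. The members and the 33 lists were chosen with earlier results of these data known. Gene positions came from GENCODE M21. The calculation was tested on simulated counts. Python 3.11.15, numpy 2.4.6, scipy 1.17.1, pandas 2.3.3 and scanpy 1.11.5 (doublet scores) were used.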

Additional observations from a re-analysis of the deposited data

Results flagged for a closer look

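For 3 of the genes named between the tumors, the ratio of myofibroblast-like to other fibroblasts passed 1.5-fold in both tumors and in opposite directions, and the difference was not tested. Reg3g had a log2 ratio of 3.25 in the Dll1+ and -2.89 in the Dll1- tumor, a difference of 6.138, which rests on 140 UMIs in Dll1+ cells and 1 in Dll1- cells. Spp1 had ratios of 1.47 in the Dll1+ and -0.94 in the Dll1- tumor, a difference of 2.414. Idi1 had ratios of -1.11 in the Dll1+ and 0.85 in the Dll1- tumor, a difference of -1.961, with 17 of 41 Dll1- UMIs in 1 cell.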

How the results depend on the processing

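No paired analysis was possible because each group is 1 library with no shared replicate number. For the same reason no library could be left out. The share of myofibroblast-like cells among fibroblasts (33.6% Dll1+, 6.34% Dll1-) was 22.55% in the Dll1+ tumor with M ahead by 2 genes, 22.06% and 3.835% without Acta2 and Tagln, and 21.57% and 4.277% with 3 or more M genes. Counts of genes past 1.5-fold, given as higher and lower, moved as follows. For myofibroblast-like over other fibroblasts they were 444 and 545 (Dll1+) and 782 and 963 (Dll1-) with a pseudocount of 10 CPM, 2135 and 2065 and then 2470 and 3286 with no filter, and 108 and 175 and then 181 and 275 with at least 500 UMIs. For Dll1+ over Dll1- cells, 222 were lower with a pseudocount of 10, 3701 and 1869 passed with no filter, 50 and 25 with at least 500 UMIs, 1220 and 752 with cells weighted alike by number of M genes, and 262 were higher without cells of more than 1 epithelial UMI. The filters change how many genes are counted; for the rest the cause was not tested. The settings of at least 500 UMIs and of 3 or more M genes were added after seeing the data. Among values past 1.5-fold, 5 changed sign, all of them between tumors: the cell cycle list at -0.07502 with high doublet scores removed, Pglyrp1 at 1.444, Creb5 at 0.8015 and Ccl2 at 0.0145 without cells of more than 1 epithelial UMI, and Pglyrp1 at 0.2566 with M genes weighted alike. Over all other values, 318 moved by more than their counting interval and 1678 did not. Smaller list medians of myofibroblast-like over other fibroblasts changed sign as well, among them the Notch list under 3 (Dll1+) and 7 (Dll1-) of 14 settings and the BMP list of the Dll1- tumor down to -0.54. The medians of the contractile, myofibroblastic CAF, inflammatory CAF, adventitial, collagen, elastic, protease, TGF-beta and Wnt lists, myofibroblast-like over other fibroblasts, kept their sign in both tumors under all 14 settings. The 43 Dll1- cells limit the depth: a count of 0 there allows up to about 6.17 CPM, against 1.86 CPM in the Dll1+ cells. These limits take 3 UMIs as the most that a count of 0 allows. That is a 1-sided approximation, lower than the exact Poisson intervals used for levels.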
